A study of Mus musculus with 6 samples.

Results

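The subunits of the receptors for glutamate, GABA and glycine were followed in the mouse eye at 9.0 h, with 1.5 h after light onset for comparison. Members were chosen by a rule on gene symbols, with earlier results of these data known. Of the 22692 gene symbols in each table, 49 were subunits of AMPA, kainate, NMDA, delta, metabotropic glutamate, GABA-A or glycine receptors. Grm6, the glutamate receptor of ON bipolar cells, was left out by the rule.

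The tissue was the whole eye of an inbred strain, C57BL/6J, and all libraries were made from females aged 4 weeks. After light onset, 3 libraries were made at 9.0 h and 3 at 1.5 h, each from the pooled total RNA of 5 mice. Nothing in the labels says that separate mice went into the pools of a time, so p-values measure only how far these libraries scatter, and that scatter may be technical. A whole eye holds retina, pigment epithelium, lens, cornea and attached muscle, so fewer cells of a type and less RNA per cell cannot be told apart.

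AMPA, kainate and NMDA receptors are cation channels opened by glutamate, whereas GABA-A and glycine receptors are chloride channels, and the metabotropic receptors act through G proteins. In the retina, photoreceptors and bipolar cells release glutamate, and amacrine cells release GABA or glycine. GABA-A receptors built from rho subunits open and close slowly, and are best known from the axon terminals of bipolar cells.

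Estimated depth ranged from 24040000 to 31800000 reads at 9.0 h and from 12690000 to 28960000 reads at 1.5 h, with the lowest depths in 1.5 h replicates 2 and 3. Counting error alone allows a transcript of 2 kb with 0 reads a level of up to 0.0472 to 0.118 RPKM (reads scaled by the length of the gene model and by the reads of the library), depending on the library. Pairs of libraries correlated at r = 0.948 to 0.989 on the log2 scale. Retinal markers were present in every library, with rod markers summing to 11470 to 12700 RPKM at 9.0 h and 12250 to 13670 RPKM at 1.5 h. The sum of 10 lens markers ran from 94730 to 110800 RPKM at 9.0 h and from 65540 to 95970 RPKM at 1.5 h, with 1.5 h replicate 1 lowest. That library was also lowest in the 9 skeletal muscle markers, at 775.6 RPKM, against 1389 to 1611 RPKM at 9.0 h and 1255 to 1424 RPKM in the other 1.5 h libraries. No marker present in the tables was at 0 in any library.

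Receptor subunits were present at low to moderate levels at both times. A value above 0 was found for 48 of the 49 in every library, and 8 had a mean of at least 10 RPKM over the 6 libraries. Among these were Gabrr1, Gabrr2, Glrb, Grik1 and Grik5. The summed level of all 49 was 211, 202 and 186 RPKM at 9.0 h, against 215, 238 and 224 RPKM at 1.5 h (199.5 ± 12.8 and 225.7 ± 11.4 RPKM, SD, n = 3 each). Every 9.0 h library lay below every 1.5 h library in this sum.

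**Figure D1:**
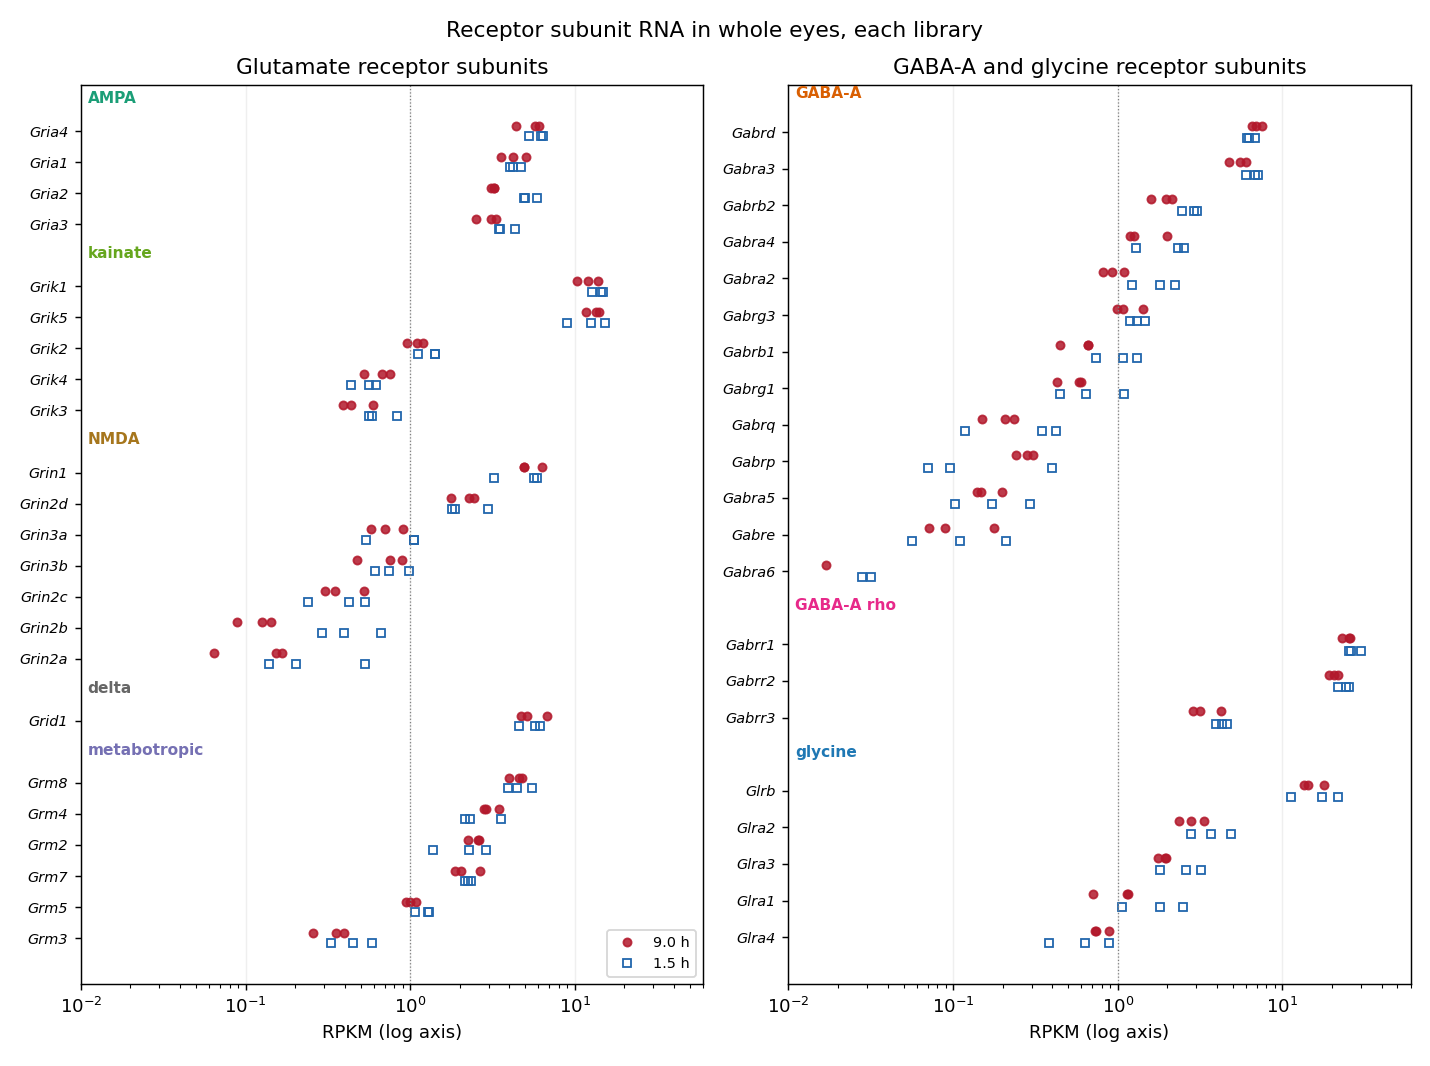
Level of 44 of the 49 subunits in each library, on a log axis in RPKM, with 9.0 h libraries as filled circles and 1.5 h libraries as open squares, grouped by receptor family (values listed at 0, which occurred for Gabra6, are not drawn, and the dotted line marks 1 RPKM). The rho subunits Gabrr1 and Gabrr2 were the highest, with 19.1 to 25.7 RPKM at 9.0 h and 21.7 to 30.1 RPKM at 1.5 h.

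The 250 bases before the annotated start of the gene (RefSeq, GRCm38.p6, on the gene's strand) are shown for 5 members. Gria2 and Gabra2 are shown because their fold changes were the lowest of the tested members whose libraries did not overlap, Gabrr1 and Gabrr2 because they are the highest members and lie next to each other, and Grin1 because it carries the E-box, the element bound by the core clock activators. Bases are in lower case, and capitals mark 4 motifs searched on both strands: E-box CACGTG, D-box TTATGTAA, the short CRE site TGACG and the GC box GGGCGG.
Gria2, chr3:80802836-80803085, minus strand: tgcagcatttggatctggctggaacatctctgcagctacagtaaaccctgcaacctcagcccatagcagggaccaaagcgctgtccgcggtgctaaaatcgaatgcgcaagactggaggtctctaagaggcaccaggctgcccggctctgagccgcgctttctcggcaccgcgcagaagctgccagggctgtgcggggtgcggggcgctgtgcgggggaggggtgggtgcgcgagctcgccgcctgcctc
Gabra2, chr5:71095850-71096099, minus strand: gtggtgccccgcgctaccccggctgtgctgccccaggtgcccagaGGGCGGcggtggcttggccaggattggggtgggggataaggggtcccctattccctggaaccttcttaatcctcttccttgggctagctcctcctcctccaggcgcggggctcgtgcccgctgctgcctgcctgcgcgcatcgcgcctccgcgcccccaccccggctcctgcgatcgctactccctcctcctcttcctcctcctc
Gabrr1, chr4:33132306-33132555, plus strand: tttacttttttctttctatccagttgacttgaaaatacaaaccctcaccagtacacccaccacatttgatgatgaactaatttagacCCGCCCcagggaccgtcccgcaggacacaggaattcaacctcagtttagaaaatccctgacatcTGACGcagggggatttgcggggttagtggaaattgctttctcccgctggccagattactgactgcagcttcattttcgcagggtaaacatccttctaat
Gabrr2, chr4:33062862-33063111, plus strand: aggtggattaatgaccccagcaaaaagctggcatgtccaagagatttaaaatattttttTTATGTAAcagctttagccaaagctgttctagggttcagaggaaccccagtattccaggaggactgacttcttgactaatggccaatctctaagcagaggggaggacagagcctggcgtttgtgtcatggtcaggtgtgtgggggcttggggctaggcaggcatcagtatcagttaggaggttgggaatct
Grin1, chr2:25319188-25319437, minus strand: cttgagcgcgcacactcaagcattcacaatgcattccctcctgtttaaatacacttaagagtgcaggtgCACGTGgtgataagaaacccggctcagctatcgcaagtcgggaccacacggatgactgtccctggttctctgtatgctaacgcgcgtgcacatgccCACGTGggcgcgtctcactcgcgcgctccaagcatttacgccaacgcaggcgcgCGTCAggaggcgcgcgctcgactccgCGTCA

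An entry was found for 33 member symbols, with 40 start sites in all. The E-box letters were in 1 of the 40 (Grin1), against 6.02% of 32851 windows of the same length over all genes. D-box letters were in 1 (Gabrr2), against 0.819% of all windows, and the short CRE site was in 3 (Grin1, Gabrr1 and Grm8), against 17.8%. GC box letters were in 19 of the 40, or 47.5%, against 32.7% of all windows. A match describes these letters only.

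The comparison of 9.0 h with 1.5 h was made with limma on log2(RPKM + 0.1), a scale that understates the change of low genes. It covered 13490 genes, those that reached 1 RPKM in at least 3 libraries, and 32 were members. Every tested member reached that level in 4 or more libraries. Gabra2 reached it in all 1.5 h libraries but at 9.0 h only in replicate 2, so it passed the filter through the time where it was higher. It is part of the counts that follow. With genes kept by a mean of at least 0.2 RPKM instead, its adjusted p in limma was 0.261. No member passed the Benjamini-Hochberg adjusted p of 0.05 in limma (0 of 32), where 0.222% of all tested genes, or 30, did. Without 1.5 h replicate 1, limma gave 5 of 32 members past the threshold (Gabra2, Gabra4, Gabrb2, Glra2 and Gria2). In that fit 1219 of all 13375 tested genes passed. Leaving out any other library gave 0 members. At an unadjusted p under 0.05, limma gave 4 members lower at 9.0 h (Gria2, Gabra2, Gabrb2 and Glra1), or 12.5%, against 4.58% of all tested genes. The same limma threshold gave 0 members higher at 9.0 h, against 6.47% of all tested genes.

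The median log2 fold change of the 32 tested members was -0.22, against -0.00 over all tested genes, and 26 of them, or 81.2%, lay below 0, against 50.6% of all tested genes. In 5 members (15.6%) every 9.0 h library lay below every 1.5 h library, namely Gria2, Gria3, Gabra2, Gabra3 and Gabrb2. That pattern held for 8.41% of all tested genes. The opposite pattern held for 0 members and for 9.78% of all tested genes. The median of the members' deviations from their own means was -0.01, -0.08 and -0.27 in the 9.0 h libraries and 0.13, 0.17 and 0.07 in the 1.5 h libraries (log2 scale). Marker lists also differed between libraries: the median of the 10 rod markers deviated by -0.07, -0.18 and -0.05 at 9.0 h and by 0.05, 0.19 and 0.05 at 1.5 h. The 10 bipolar markers, a list that includes Grik1, deviated by 0.08, -0.11 and -0.18 at 9.0 h and by 0.01, 0.09 and 0.08 at 1.5 h. The 8 amacrine markers in the tables deviated by 0.18, -0.04 and 0.02 at 9.0 h and by -0.01, -0.12 and -0.01 at 1.5 h. Their median log2 fold change was 0.07, that of ganglion cell markers -0.02 and that of Mueller glia markers 0.01, against -0.25 for rod and -0.19 for bipolar markers. The median was -0.19 for cone and -0.27 for pigment epithelium markers. Of 5 horizontal cell markers only 2 were tested (Calb1 and Sept4), and their median was -0.09. For lens, cornea and skeletal muscle markers the median was 0.36, 0.18 and 0.43. The part of these cell types in the members' values was not tested.

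**Figure D2:**
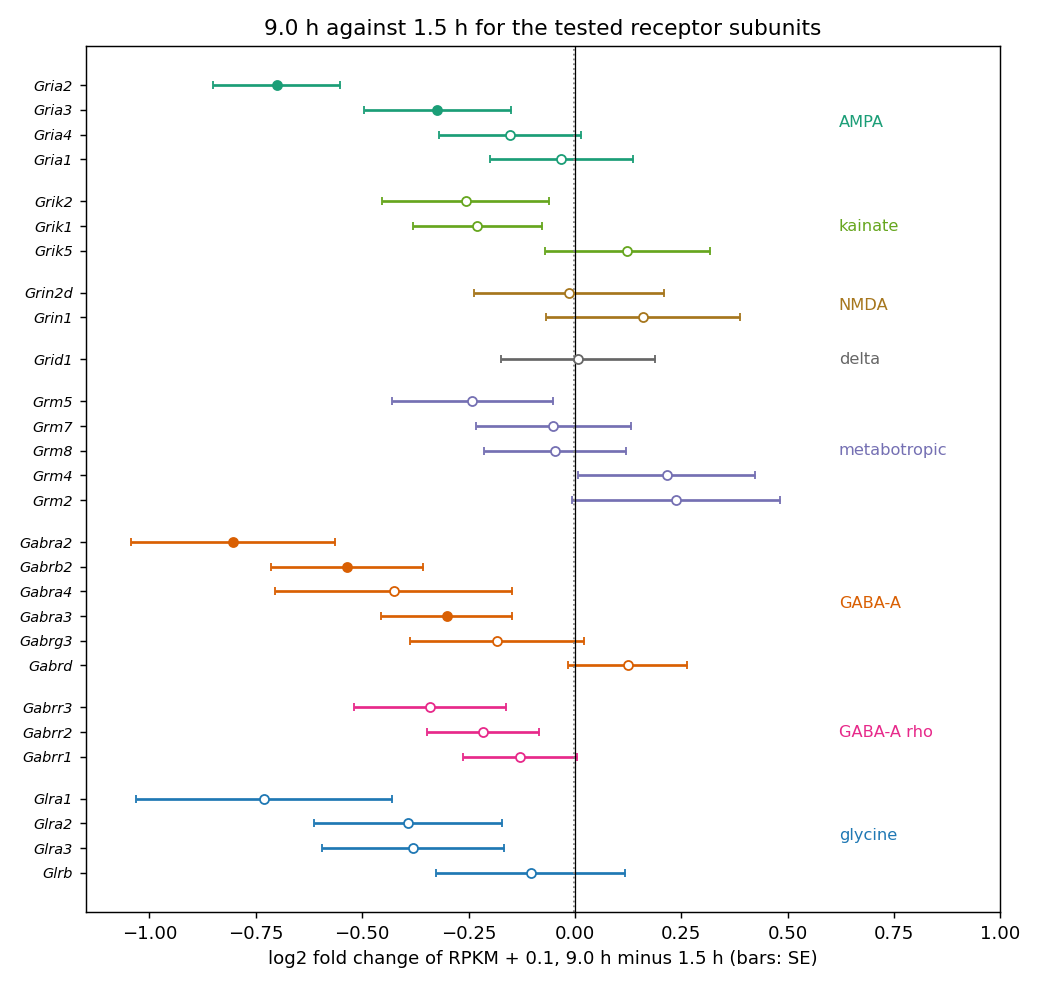
Log2 fold change of 28 of the 32 tested subunits at 9.0 h against 1.5 h, grouped by family, with bars for the standard error and filled points for the 5 members whose libraries did not overlap between the times. Of those drawn, 22 lie below 0, and none passed the adjusted threshold in limma.

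AMPA receptors carry most fast excitatory transmission. Gria2, whose edited protein GluA2 lowers the calcium permeability of the channel, had the smallest unadjusted p of the members. Gria2 had 3.11, 3.24 and 3.21 RPKM at 9.0 h, against 4.90, 5.88 and 5.00 RPKM at 1.5 h. All 9.0 h libraries were close together and below all 1.5 h libraries. The log2 fold change was -0.70 ± 0.15 (SE; 3.19 ± 0.0709 against 5.26 ± 0.541 RPKM, SD, n = 3 each), with an adjusted p of 0.105 in limma. Without 1.5 h replicate 1 its adjusted p in limma was 0.00134, and without 9.0 h replicate 3 it was 0.637. Over all alternatives it ran from 0.000668 to 0.637 in limma. The log2 fold change without 1.5 h replicate 1 was -0.75 ± 0.18 (SE), a larger SE than with all libraries. In that fit 1219 of 13375 genes passed the threshold.

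Gria3, which encodes GluA3, also showed no overlap. It had 3.11, 3.32 and 2.52 RPKM at 9.0 h, against 3.46, 4.31 and 3.50 RPKM at 1.5 h, a log2 fold change of -0.32 ± 0.17 (SE) with an adjusted p of 0.541 in limma. Gria4, which encodes GluA4, was the highest AMPA subunit. It had 5.75, 6.08 and 4.40 RPKM at 9.0 h, against 5.31, 6.27 and 6.39 RPKM at 1.5 h, and the times overlapped. Gria1, which encodes GluA1, had 5.04, 4.20 and 3.55 RPKM at 9.0 h and 4.22, 4.06 and 4.71 RPKM at 1.5 h, with overlap as well. The log2 fold changes of Gria4 and Gria1 were -0.15 ± 0.17 and -0.03 ± 0.17 (SE).

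Of 27 shares of a subunit in its family that were computed, 6 did not overlap between the times, 4 lower and 2 higher at 9.0 h. By level, 8.41% of all tested genes had no overlap and were lower at 9.0 h, and 9.78% were higher. Shares were not computed for other genes. Within the summed AMPA level, Gria2 made up 18.3%, 19.3% and 23.5% at 9.0 h and 27.4%, 28.7% and 25.5% at 1.5 h (means 20.3% and 27.2%). Gria1 made up 26.8 ± 2.49% at 9.0 h and 22.5 ± 2.34% at 1.5 h (SD, n = 3 each). The times did not overlap for either share, with an exact permutation p of 0.1 (two-sided), the smallest that 3 libraries against 3 allow. Shares of a family add up to the same total, so they are not independent of each other.

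**Figure D3:**
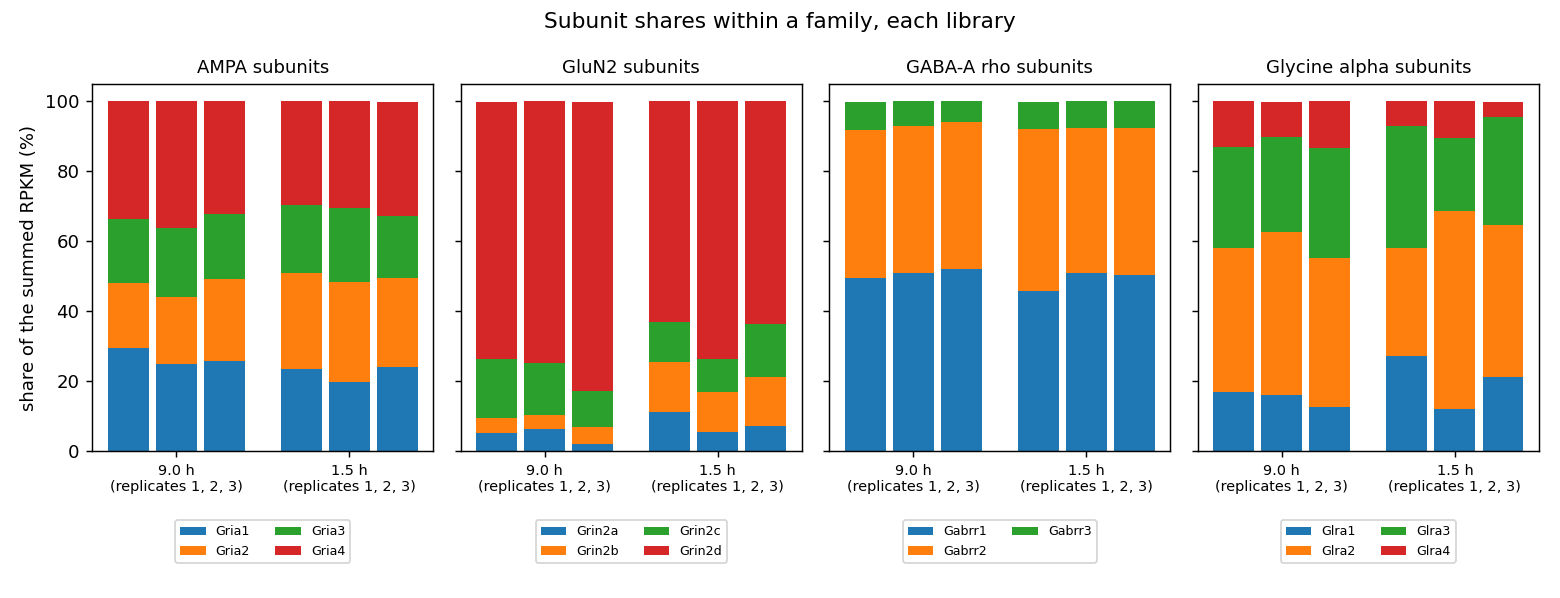
Share of each subunit in the summed RPKM of the AMPA, GluN2, GABA-A rho and glycine alpha subunits (percent, stacked), with 1 bar for each library and 9.0 h left of 1.5 h. Gria2 took 20.3% of the AMPA sum at 9.0 h and 27.2% at 1.5 h, and Grin2b took 4.22% of the GluN2 sum at 9.0 h and 13.2% at 1.5 h.

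Kainate receptor subunits were led by Grik1 and Grik5. Grik1 encodes GluK1, known from OFF bipolar cells, and had 13.8, 11.9 and 10.3 RPKM at 9.0 h, against 14.9, 14.4 and 12.8 RPKM at 1.5 h. Its highest 9.0 h library overlapped the lowest 1.5 h library, and the log2 fold change was -0.23 ± 0.15 (SE; limma adjusted p = 0.631). Grik5, which encodes the high-affinity partner GluK5, had 14.1, 11.6 and 13.5 RPKM at 9.0 h, against 15.3, 8.93 and 12.5 RPKM at 1.5 h. The 1.5 h libraries spanned the whole 9.0 h range, and the log2 fold change was 0.12 ± 0.19 (SE). Grik2, encoding GluK2, had a log2 fold change of -0.26 ± 0.20 (SE), and its libraries overlapped. Grik3 and Grik4 did not reach the expression filter, with means of 0.568 and 0.596 RPKM over the 6 libraries.

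NMDA receptors need Grin1, which encodes the obligatory subunit GluN1 that binds glycine or serine. Grin1 had 6.29, 4.91 and 4.91 RPKM at 9.0 h, against 5.86, 3.23 and 5.69 RPKM at 1.5 h, and the times overlapped. Its log2 fold change was 0.16 ± 0.23 (SE; limma adjusted p = 0.846). Annotated exons of Grin1 were overlapped over 13.5% of their length by those of Grin1os, and without a strand setting reads from the overlap cannot be assigned to either gene. Grin2d, the highest of the GluN2 subunits that bind glutamate, had 2.27, 1.76 and 2.44 RPKM at 9.0 h, against 2.96, 1.88 and 1.80 RPKM at 1.5 h. The times overlapped for Grin2d, with a log2 fold change of -0.01 ± 0.22 (SE).

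Grin2b, another GluN2 subunit, did not reach the filter and was singled out after its values were seen. It had 0.125, 0.0882 and 0.144 RPKM at 9.0 h, against 0.661, 0.293 and 0.398 RPKM at 1.5 h. All 9.0 h libraries lay below all 1.5 h libraries. With genes kept by a mean of at least 0.2 RPKM instead, its log2 fold change was -1.28 ± 0.32 (SE) and its adjusted p in limma was 0.185. Its mean was 0.119 RPKM at 9.0 h and 0.45 RPKM at 1.5 h, so it passed that filter only through the time where it was higher. Grin2b made up 4.22 ± 0.575% of the summed GluN2 level at 9.0 h and 13.2 ± 1.51% at 1.5 h (SD, n = 3 each; exact permutation p = 0.1), while the other GluN2 shares overlapped. Levels this low rest on few reads per kilobase. Grin2a, Grin2c, Grin3a and Grin3b were also under the filter, and the exons of Grin3b were overlapped by Tmem259 over 32.1% of their length.

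Delta receptors are glutamate receptor relatives that organise synapses. Grid1 had 6.74, 5.13 and 4.73 RPKM at 9.0 h, against 6.16, 4.55 and 5.74 RPKM at 1.5 h. The times overlapped and the log2 fold change was 0.01 ± 0.18 (SE).

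Metabotropic receptors other than Grm6 were low. Their summed level was 14.7 ± 1.33 RPKM at 9.0 h and 14.8 ± 1.13 RPKM at 1.5 h (SD, n = 3 each). Grm6, left out by the rule, averaged 13.25 RPKM at 9.0 h and 16.54 RPKM at 1.5 h, with a log2 fold change of -0.32. Grm8, a presynaptic receptor that lowers cyclic AMP, had 4.58, 4.77 and 3.98 RPKM at 9.0 h, against 3.95, 5.46 and 4.46 RPKM at 1.5 h. Grm4, of the same class, had 3.49, 2.89 and 2.80 RPKM at 9.0 h, against 3.54, 2.16 and 2.32 RPKM at 1.5 h. Grm2, known from starburst amacrine cells, had 2.63, 2.24 and 2.57 RPKM at 9.0 h, against 2.88, 1.37 and 2.28 RPKM at 1.5 h. In each of these receptors the 1.5 h libraries spanned the 9.0 h values or overlapped them. The log2 fold changes were -0.05 ± 0.17 for Grm8, 0.22 ± 0.21 for Grm4 and 0.24 ± 0.25 for Grm2 (SE), the last being the highest of the tested members. A near-identical stretch of Grm2 is present in Gm28111, so its reads may be shared. Grm7 and Grm5 had log2 fold changes of -0.05 and -0.24, and Grm3 was under the filter with a mean of 0.396 RPKM.

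GABA-A receptors are pentamers, mostly of alpha, beta and gamma subunits. The summed level of the 16 genes for alpha, beta, gamma and other subunits was 56.7, 60.2 and 49.3 RPKM at 9.0 h, against 53.5, 75.7 and 68.1 RPKM at 1.5 h. The lowest 1.5 h sum, in replicate 1, lay within the 9.0 h range. Of 9 tested genes in this group, 8 had a log2 fold change below 0, with a median of -0.23.

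Gabrb2, a beta subunit, had 1.96, 2.13 and 1.60 RPKM at 9.0 h, against 2.46, 2.90 and 3.02 RPKM at 1.5 h. The times did not overlap. The log2 fold change was -0.54 ± 0.18 (SE; limma adjusted p = 0.302). Without 1.5 h replicate 1, limma gave Gabrb2 an adjusted p of 0.0269, within a range of 0.00281 to 0.894 over the alternatives. The log2 fold change without that library was -0.62 ± 0.20 (SE). Gabrb2 made up 14.0 ± 0.32% of the beta sum at 9.0 h and 16.8 ± 1.39% at 1.5 h (SD, n = 3 each). This share did not overlap between the times, at an exact permutation p of 0.1.

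Gabra2 and Gabra3 encode alpha subunits found at amacrine cell synapses. Gabra2 had 0.918, 1.09 and 0.815 RPKM at 9.0 h, against 1.22, 1.80 and 2.24 RPKM at 1.5 h. All 9.0 h libraries were below all 1.5 h libraries, and the log2 fold change of -0.80 ± 0.24 (SE; 0.942 ± 0.141 against 1.76 ± 0.511 RPKM, SD, n = 3 each) was the lowest of the tested members. Its adjusted p in limma was 0.25. It was 0.000393 in limma without 1.5 h replicate 1, within a range of 7.9e-05 to 0.867 over the alternatives. The log2 fold change of Gabra2 without that library was -1.03 ± 0.23 (SE). Gabra3 had 5.51, 6.01 and 4.71 RPKM at 9.0 h, against 6.03, 6.86 and 7.13 RPKM at 1.5 h. The highest 9.0 h value lay just under the lowest 1.5 h value, and the log2 fold change was -0.30 ± 0.15 (SE; limma adjusted p = 0.515). Gabra2 made up 4.69 ± 0.313% of the alpha sum at 9.0 h and 6.94 ± 1.12% at 1.5 h (SD, n = 3 each), again without overlap (exact permutation p = 0.1), while every other alpha share overlapped.

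Gabrd, the delta subunit of receptors outside synapses, was the one tested gene of this group above 0. It had 7.49, 6.96 and 6.53 RPKM at 9.0 h, against 6.14, 6.85 and 6.24 RPKM at 1.5 h. The times overlapped, with a log2 fold change of 0.12 ± 0.14 (SE; limma adjusted p = 0.796).

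GABA-A subunit genes lie in clusters of neighbours, a grouping examined after the values were seen. In the cluster of Gabrg1, Gabra2, Gabra4 and Gabrb1 the summed level was 3.55 ± 0.691 RPKM at 9.0 h and 5.57 ± 1.34 RPKM at 1.5 h (SD, n = 3 each). The 9.0 h sum was 63.7% of the 1.5 h sum, and the libraries overlapped. In the other 3 clusters of at least 3 GABA-A genes it was 80.6% to 86.3% of the 1.5 h sum. Gabrb1 had 0.657, 0.659 and 0.446 RPKM at 9.0 h, against 1.07, 1.31 and 0.742 RPKM at 1.5 h. The times did not overlap for Gabrb1, which was under the filter. Gabra4 had 1.25, 2.00 and 1.19 RPKM at 9.0 h, against 1.29, 2.32 and 2.53 RPKM at 1.5 h, with overlap. Gabrg1 overlapped as well, at 0.427, 0.583 and 0.600 RPKM at 9.0 h, against 0.447, 1.09 and 0.642 RPKM at 1.5 h. Gabra6, known from cerebellar granule cells, was listed at 0 in 3 of the 6 libraries and otherwise did not exceed 0.0318 RPKM.

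The rho subunits were the most abundant members. Gabrr1 had 25.7, 23.0 and 25.5 RPKM at 9.0 h, against 25.2, 30.1 and 26.0 RPKM at 1.5 h. Gabrr2 had 21.8, 19.1 and 20.5 RPKM at 9.0 h, against 25.4, 24.4 and 21.7 RPKM at 1.5 h. In both genes the highest 9.0 h library lay above the lowest 1.5 h library. The log2 fold changes were -0.13 ± 0.13 for Gabrr1 and -0.22 ± 0.13 for Gabrr2 (SE; limma adjusted p = 0.778 and 0.597). Gabrr3 was several times lower, at 2.85 to 4.22 RPKM at 9.0 h and 3.95 to 4.58 RPKM at 1.5 h. Of the rho sum, Gabrr1 made up 50.9%, Gabrr2 42.1% and Gabrr3 6.98% at 9.0 h, against 49.1%, 43.1% and 7.76% at 1.5 h, and each share overlapped between the times.

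Glycine receptors combine alpha subunits with the beta subunit Glrb, which ties them to gephyrin. Glrb had 13.6, 17.8 and 14.3 RPKM at 9.0 h, against 11.3, 21.8 and 17.5 RPKM at 1.5 h. The 1.5 h libraries spanned the whole 9.0 h range, and the log2 fold change was -0.10 ± 0.22 (SE). Glra1, the alpha subunit of the adult spinal receptor, had 1.14, 1.15 and 0.707 RPKM at 9.0 h, against 2.50, 1.06 and 1.80 RPKM at 1.5 h. Its lowest 1.5 h library lay among the 9.0 h values, and the log2 fold change was -0.73 ± 0.30 (SE; limma adjusted p = 0.40). Without 1.5 h replicate 1, the library with its highest value, the log2 fold change of Glra1 was -0.46, and without 1.5 h replicate 2 it was -1.04.

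Glra2, an alpha subunit of amacrine and ganglion cells, had 2.78, 3.34 and 2.35 RPKM at 9.0 h, against 2.79, 4.90 and 3.69 RPKM at 1.5 h. The times overlapped, with a log2 fold change of -0.39 ± 0.22 (SE; limma adjusted p = 0.557). Without 1.5 h replicate 1 its adjusted p in limma was 0.0233, and over the alternatives it reached 0.989. The log2 fold change of Glra2 without that library was -0.59 ± 0.19 (SE). Glra3 was at 1.74 to 1.95 RPKM at 9.0 h and 1.81 to 3.20 RPKM at 1.5 h. Glra4 was under the filter with a mean of 0.709 RPKM.

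By family, the median log2 fold change of tested members was -0.24 for AMPA (4 genes), -0.23 for kainate (3), 0.07 for NMDA (2), 0.01 for delta (1) and -0.05 for metabotropic receptors (6). It was -0.23 for GABA-A alpha, beta, gamma and other subunits, -0.22 for rho (3) and -0.39 for glycine receptors (4). The 16 tested GABA-A and glycine subunits had a median of -0.27, with 15 below 0, and the 16 tested glutamate receptor genes a median of -0.05, with 11 below 0. The difference between these groups was not tested. The NMDA, delta and metabotropic medians changed sign under other scalings, which also moved the median of all tested genes. With crystallin genes left out of the library total the NMDA and delta medians were -0.01 and -0.07, against -0.08 over all tested genes. With retinal markers made equal the metabotropic median was 0.05, against 0.10 over all tested genes. With single libraries left out the delta median ran from -0.14 (9.0 h replicate 1) to 0.11 (9.0 h replicate 3). The NMDA median was -0.14 with the low NMDA genes included, -0.11 without 1.5 h replicate 2 and 0.26 without 1.5 h replicate 1. For the AMPA, kainate, GABA-A, rho and glycine families the median stayed below 0 under every setting tried. The kainate median came close to that of all tested genes (-0.00589 against -0.00379) once the trend with GC content and length, described below, was removed. The size of the medians also moved with single libraries. Without 9.0 h replicate 3 the median was -0.11 for AMPA, -0.12 for kainate and -0.14 for all members. Without 1.5 h replicate 1 it was -0.43 for the GABA-A group without rho.

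Of the 46 members with a mean of at least 0.2 RPKM, 7 (15.2%) had no overlap and were lower at 9.0 h, against 8.79% of the 15711 genes so filtered. The 2 beyond the 5 named above were Gabrb1 and Grin2b. Of these, Grin2b passed this filter only through its 1.5 h values. The 17 untested members had means of 0.01275 to 0.8141 RPKM, with 12 below 0 and 5 above 0 in the log2 difference and a median of -0.18.

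The members' values moved with the GC content of their transcripts. Across the 32 tested members, log2 fold change and GC content had a Pearson r of 0.639, and across 13378 tested genes with a reference transcript r was 0.267. This is a description across genes, which share the same 6 libraries and are not independent replicates. Gria2 has 36.8% GC and Gabra2 38.4%, while Grin1 has 59.4%, Grik5 61.7% and Grin2d 65%. All 16 members below the members' median GC had a log2 fold change below 0, with a median of -0.28. In the other 16 members 10 lay below 0 and 6 above, with a median of -0.04. The trend differed between single libraries: the correlation of all genes' deviations with GC was 0.382, -0.261 and 0.405 at 9.0 h and 0.327, -0.543 and -0.188 at 1.5 h.

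**Figure D4:**
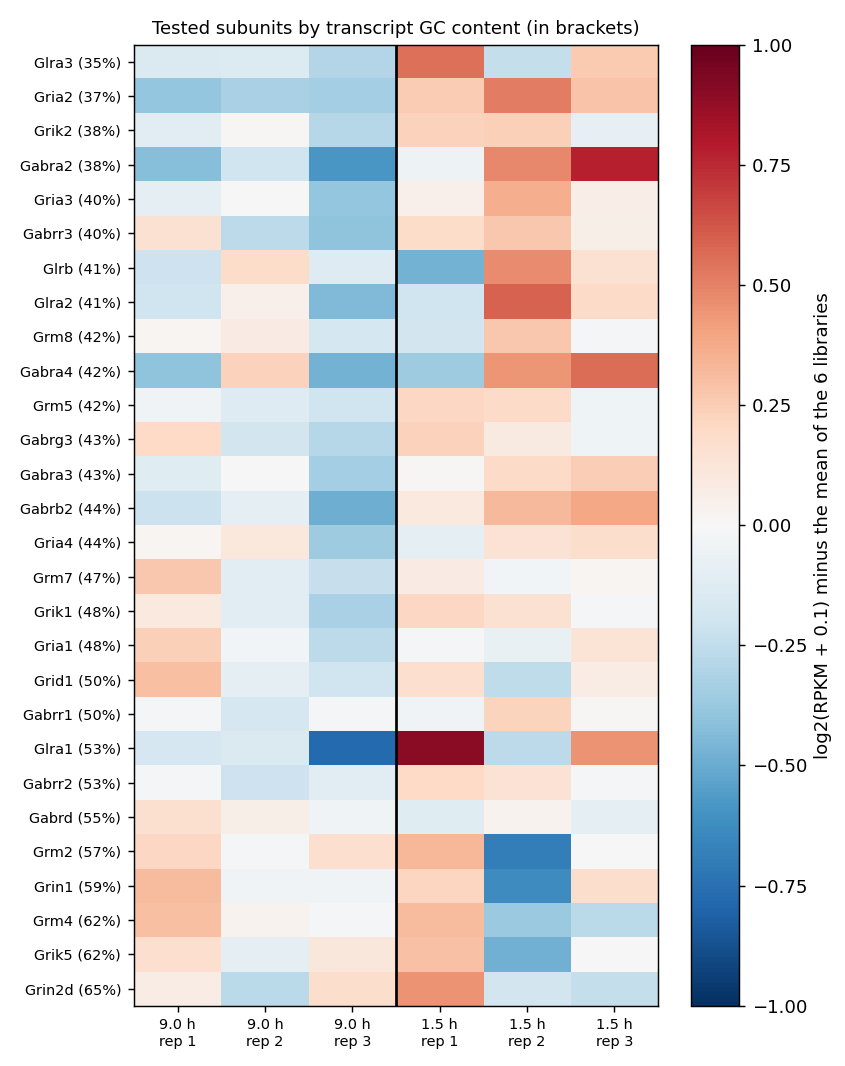
Deviation of 28 of the 32 tested subunits from their own means over the 6 libraries (log2 scale, colour), with 9.0 h libraries left of 1.5 h libraries and subunits ordered by transcript GC content, lowest at the top. Of the low-GC subunits, Gria2 is high in all 1.5 h libraries and Gabra2 in 1.5 h replicates 2 and 3. Glra3, with the lowest GC, is high in 1.5 h replicate 1 (0.55) and low in 1.5 h replicate 2 (-0.239). High-GC subunits such as Grin1 and Grik5 are lowest in 1.5 h replicate 2.

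**Figure D5:**
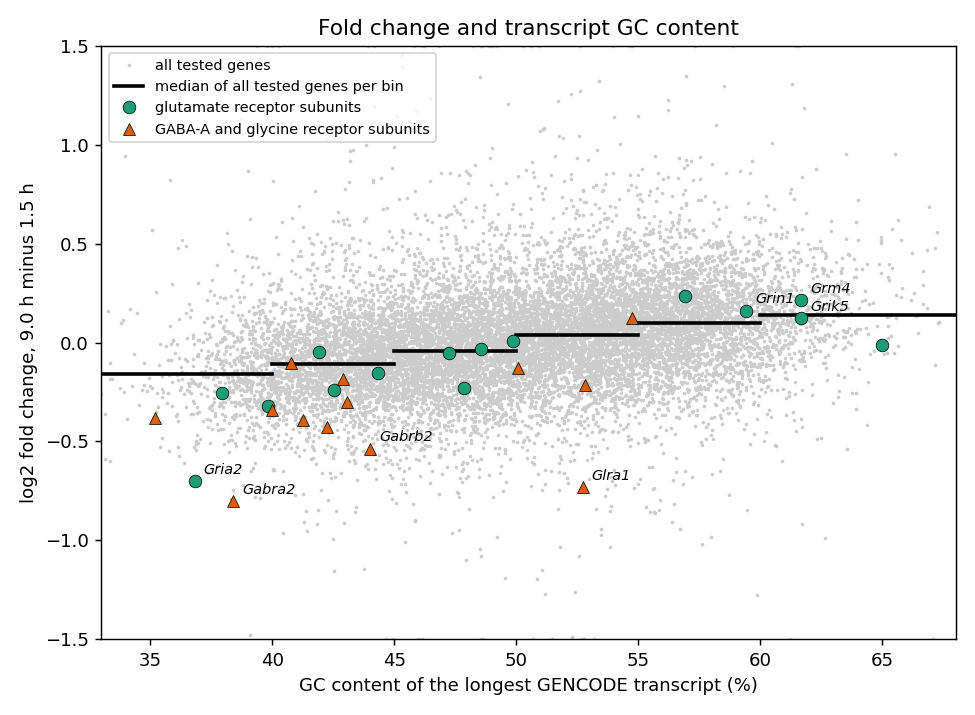
Log2 fold change at 9.0 h against 1.5 h (vertical axis; genes beyond its ends are drawn at the ends) by transcript GC content in percent (horizontal axis), with 28 of the 32 tested subunits as large symbols, all tested genes as small dots and the median of all tested genes in bins of GC as lines. Members with low GC lie lower, and 24 of all 32 lie below the median of all genes in their own bin.

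Within bins of equal GC, 24 of the 32 members lay below the median of all tested genes and 8 above, with a median difference of -0.12. After the trend with GC content and length was removed from each library, an alternative chosen after seeing the data, the median of the members was -0.09 and 23 (71.9%) lay below 0, against 50.8% of all tested genes. Then 7 members (21.9%) had no overlap and were lower at 9.0 h, against 9.81% of all tested genes. These were Gria2, Gabra2, Gabra3, Gabrb2, Gabrr1, Gabrr2 and Glra2, so Gria3 was no longer among them. Gria2 then had a log2 fold change of -0.39 ± 0.12 (SE) and an adjusted p of 0.199 in limma.

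Genes that work with these receptors were listed by function. Among auxiliary subunits that steer receptor trafficking and gating, 17 of 20 were tested, 0 passed in either direction, and 10 lay above 0 and 7 below, with a median of 0.02. The highest was Cacng7, an AMPA receptor partner, with 42.8 ± 4.42 RPKM at 9.0 h and 50.0 ± 14.7 RPKM at 1.5 h (SD, n = 3 each). Among 20 scaffold and trafficking genes 0 passed, 15 lay below 0 and 5 above, with a median of -0.15. An unadjusted p under 0.05 in limma was found for 6 of the 20. Dlg2, Homer1, Homer2, Shank1 and Shank2 were lower at 9.0 h and Grasp was higher. Over all tested genes that threshold gave 4.58% lower and 6.47% higher. It gave 0 auxiliary subunits and 0 of the transmitter genes below. Nsf, the fusion ATPase that also binds GluA2, led the scaffold and trafficking genes with 95.7 ± 9.27 RPKM at 9.0 h and 93.6 ± 3.43 RPKM at 1.5 h.

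Of the 20 genes for transmitter synthesis and transport 0 passed, with 12 below 0 and 8 above and a median of -0.04. Slc17a7, the vesicular glutamate transporter of photoreceptors and bipolar cells, was highest with 371 ± 36.1 RPKM at 9.0 h and 300 ± 68.4 RPKM at 1.5 h (SD, n = 3 each), a log2 fold change of 0.33 with a limma adjusted p of 0.579. Of the GABA-B receptor genes, the metabotropic receptors for GABA, 0 of 2 passed. Gabbr1 averaged 18.9 RPKM at 9.0 h and 17.8 RPKM at 1.5 h.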

How the data were processed

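The authors deposited 1 table per library with an RPKM value for each of 22692 gene symbols. The tools named in the submitters' processing notes are GSNAP and HTSeq, and the build is mm9. The sources used here do not give versions, annotation, strand setting or how multi-mapping reads were handled. Per the labels, poly(A) RNA was copied with random primers. RPKM values are not counts, so no count test was run. Depth was estimated from the steps of low values, of which 69.4% to 71.9% lay within 0.1 read of a whole number, which is too few to recover reads.

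Genes that reached 1 RPKM in at least 3 libraries (13490) were tested with limma 3.58.1 in R 4.3.3 (eBayes with trend and robust settings) on log2(RPKM + 0.1). P-values are two-sided and Benjamini-Hochberg adjusted over all tested genes, with a threshold of 0.05. The steps were tested on simulated data. Families follow gene symbols. Named members are the 2 highest per tested family, the 4 largest fold changes in each direction and those with no overlap between the times; partner lists give called genes or the highest member. Others named, such as Gabrb1 and Grin2b, were chosen after their values were seen. Some members are in the counts, sums and shares but are not reported here one by one or drawn. Members and lists were chosen with earlier results of these data known.

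GC content, length and exon overlaps came from GENCODE M21 transcripts (GRCm38, not the build of the files), and near-identical sequence (at least 200 nt at 95% identity) from minimap2 2.31. Annotated exons of 20 members were overlapped by another gene, and 4 members had a near-identical stretch elsewhere. Promoters are from RefSeq, GRCm38.p6. Alternatives covered the pseudocount, the filter, the scaling, sample weights, the replicate number as a block, each library left out in turn and a GC and length correction.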

Additional observations from a re-analysis of the deposited data

How the results depend on the processing

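Of 16 alternatives, those that moved the 30 genes called over all genes by more than 1.5 times were quantile normalization (15), equal retinal markers (19), array weights (2244), removal of the GC and length trend (74), the replicate number as a block (141) and leaving out single libraries (2 to 1219, the highest without 1.5 h replicate 1). The count of members called was 0 to 5 when libraries were left out: 5 of 32 without 1.5 h replicate 1 (Gabra2, Gabra4, Gabrb2, Glra2 and Gria2), against 1219 of 13375 genes, and 0 otherwise. It was 9 of 32 with array weights, against 2244 of 13490 genes. The estimation of these weights stopped before convergence. It gave 1.5 h replicate 3 a weight of 5.52, against 0.279 and 0.367 for the other 1.5 h libraries. With the replicate number as a block, 141 of 13490 genes and 1 of 32 members (Gria2, limma adjusted p = 0.0409) passed. Same-numbered libraries deviated with r = 0.347, 0.484 and -0.215 for numbers 1, 2 and 3. Replicates 1 and 2 correlated best with their own number and replicate 3 did not. With so few libraries, these values cannot tell whether the numbers pair the libraries. Removing the GC and length trend gave medians of -0.0884 for members, -0.223 for glycine and -0.00589 for kainate subunits, and array weights gave -0.11 for rho subunits. Among the 23 members named by rule, the log2 fold change changed sign in 8 under at least 1 alternative. Under quantile normalization Gria1 was 0.0187 and Grin2d 0.0384. With equal retinal markers Gria1 was 0.0672, Grin2d 0.0852 and Grm8 0.0513, against a median of 0.0958 over all tested genes. Leaving crystallins out of the total gave Grid1 -0.0736, against a median of -0.0837 over all tested genes. Array weights gave Grid1 -0.0764, Grin1 -0.0614 and Grin2d 0.202. Removing the GC and length trend gave Gria1 0.0442, Grik5 -0.00589 and Grm8 0.0773, and outside the rule Grik2 0.0252 and Gabrg3 0.0499. With single libraries left out, the log2 fold change ranged from -0.365 to 0.107 in Glrb, -0.157 to 0.09 in Gria1, -0.141 to 0.11 in Grid1, -0.0845 to 0.301 in Grik5, -0.112 to 0.308 in Grin1, -0.138 to 0.206 in Grin2d, -0.0489 to 0.461 in Grm2 and -0.152 to 0.0764 in Grm8. The causes were not tested. Depth limits the low members most, since the 1.5 h libraries with the fewest reads have the highest counting floor.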
